A study of Arabidopsis thaliana with 9 samples.

Results

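The genes described here are 10 genes of the Arabidopsis stomatal lineage, chosen by name from the 33302 features of the deposited expression table. Earlier results of these data were known when the 10 genes were chosen. They are the transcription factor genes SPCH (AT5G53210), MUTE (AT3G06120), FAMA (AT3G24140) and SCRM (AT3G26744, also called ICE1), the signalling peptide genes EPF1 (AT2G20875) and EPF2 (AT1G34245), the receptor genes TMM (AT1G80080) and ERL1 (AT5G62230), the protease gene SDD1 (AT1G04110) and the polarity gene BASL (AT5G60880). All 10 had a value of their own in every library, and 9 reached the mean of 1 FPKM (fragments per kilobase of gene model, scaled to the fragments of the library) needed for a test. ERL1 did not and is given by its values alone.

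Stomata are pores in the plant epidermis, each framed by a pair of guard cells that arise from young epidermal cells through a fixed series of divisions. SPCH starts the series by driving asymmetric divisions, MUTE ends them and commits the cell to become a guard mother cell, and FAMA drives the last step to guard cells; each acts with SCRM or its relative SCRM2. Secreted EPF peptides, sensed at the cell surface by TMM and the ERECTA family of receptor kinases, restrain the lineage in neighbouring cells through a MAP kinase cascade, so that stomata are spaced apart. Most of these genes are transcribed for a short time in young leaf epidermis, and only a small share of the cells of a grown leaf carries them.

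RNA was taken from leaves of 21-day-old plants in the Columbia-0 background, with 2 libraries per group. All plants of both groups carried an added histone H3 gene, a copy of HTR5 (AT4G40040). In the group called WT that copy was unmutated, and in the group called K36M it encoded methionine at the lysine, K36, that carries H3K36 methylation. The series was made to ask how transcription changes where H3K36 methylation is lost. The labels of the RNA samples give neither the promoter of the added gene, nor its number of insertions, nor whether the plants were heterozygous or homozygous for it, nor the number of plants or independent lines behind a library, so an effect of the mutation and one of the line cannot be told apart. Libraries of 1 group are biological replicates by their labels, and p-values measure the spread between these libraries only. The 5 H3K36me3 chromatin libraries of the series, among them K36M plants of either zygosity, were not analysed here.

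HTR5 stood at 322 and 711 FPKM in the WT libraries against 391 and 582 FPKM in the K36M libraries, and these values do not separate the mutated from the unmutated transcript. Depth per library is unknown. The FPKM over all 33302 features summed to 766727 and 2150310 in WT replicates 1 and 2 against 932464 and 1353460 in K36M replicates 1 and 2. WT replicate 1 stood apart from the other libraries, with Pearson r across genes of 0.821 to 0.834 to each of them against 0.937 to 0.95 among the others (17738 tested features, log2(FPKM + 1); genes are not independent replicates). The photosynthesis gene RBCS1A stood at 21082 FPKM or more in all 4 libraries. That value does not show that the libraries held the same parts or ages of leaf. Markers of meristem and young leaf differed between the libraries (described below). Results that rest on WT replicate 1 are given below with and without it.

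No stomatal lineage gene differed between the genotypes by the test over all features. None of the 9 tested genes was called higher or lower in K36M (limma on log2(FPKM + 1), Benjamini-Hochberg adjusted p = 1 for each; 0 of 9 at an unadjusted p under 0.05, where 4.12% of all tested features lay), against 0.0282% of the 17738 tested features called higher and 0.0113% called lower. BASL, MUTE and ERL1 had both K36M values above both WT values. The other 7 genes overlapped between the groups, and the widest spread among them lay between the WT libraries, where EPF2, EPF1 and TMM differed 25.9-fold, 9.03-fold and 7.73-fold. Of the 9 tested genes, 2 thus had both K36M values above both WT values, against 12.1% of all tested features. ERL1 was not tested, and BASL passed the filter only through its K36M libraries. The plot of FPKM by gene and library shows the values of all 10 genes.

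**Figure D1:**
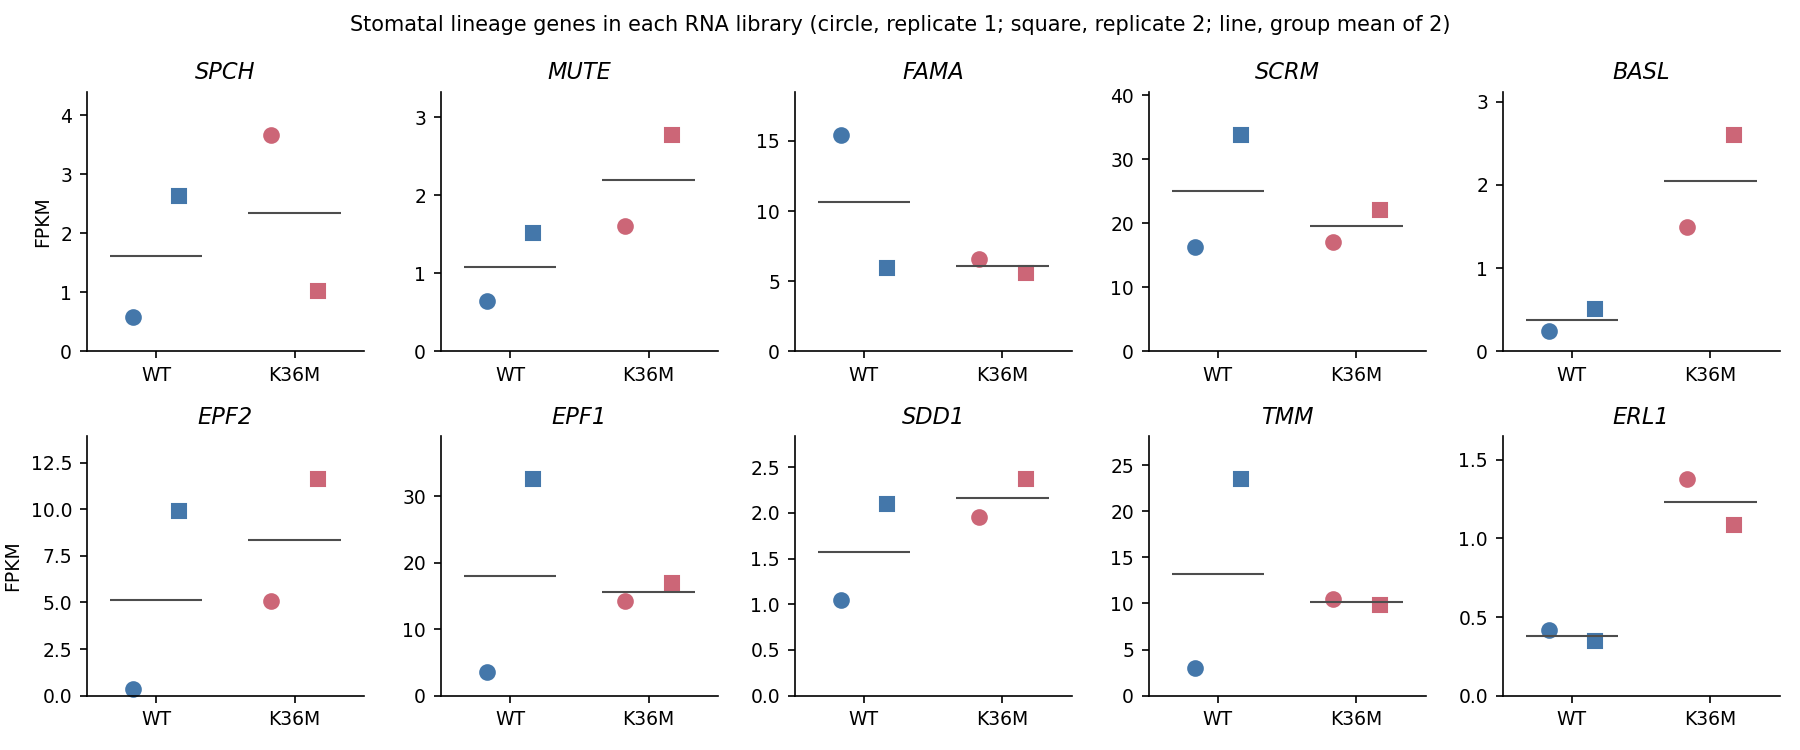
FPKM (vertical axis, linear, from 0) of the 10 stomatal lineage genes in the 2 WT and 2 K36M libraries; circles are replicate 1, squares replicate 2 and lines the group means. BASL, MUTE and ERL1 have both K36M points above both WT points, while in EPF1 and TMM the WT points lie on either side of both K36M points. Of all tested features, 12.1% had both K36M values above both WT values.

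FPKM are scaled to gene length, but in WT replicate 1 a trend with gene span remained (described below), so levels of short and long genes in that library, and WT means that include it, are not strictly comparable. By mean FPKM in WT the order was SCRM (25.0), EPF1 (18.1), TMM (13.2), FAMA (10.7), EPF2 (5.13), SPCH (1.61), SDD1 (1.58), MUTE (1.08), ERL1 (0.381) and BASL (0.379). Of the 9 pairs of neighbours in that order, only MUTE and ERL1 had WT ranges that did not overlap. In K36M the order was SCRM (19.6), EPF1 (15.6), TMM (10.1), EPF2 (8.35), FAMA (6.12), SPCH (2.35), MUTE (2.19), SDD1 (2.16), BASL (2.05) and ERL1 (1.23). There the ranges of SCRM and EPF1, of EPF1 and TMM, of FAMA and SPCH, and of BASL and ERL1 were apart, and those of the other neighbours overlapped. SCRM was the most abundant of the 10 in each of the 4 libraries. The rest of the WT order differed between its libraries. In WT replicate 1 FAMA (15.4 FPKM) was above EPF1 and TMM, and EPF2 (0.382 FPKM) was below SPCH, MUTE, SDD1 and ERL1, whereas in WT replicate 2 EPF2 (9.88 FPKM) was above FAMA (5.93 FPKM).

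Among the transcription factors, SPCH, the basic helix-loop-helix (bHLH) protein that starts the lineage, stood at 0.591 and 2.64 FPKM in WT replicates 1 and 2 against 3.66 and 1.03 FPKM in K36M replicates 1 and 2. The groups overlapped, with the highest and the second lowest value both in K36M. The log2 fold change was 0.35 ± 0.64 (SE; 95% interval -1.20 to 1.91; limma adjusted p = 1). It turned negative without WT replicate 1 (-0.24) and without K36M replicate 1 (-0.25). The SPCH values thus leave room for a difference in either direction.

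MUTE, the bHLH protein that ends the asymmetric divisions, stood at 0.652 and 1.52 FPKM in the WT libraries against 1.61 and 2.77 FPKM in the K36M libraries. Both K36M values were above both WT values, though the lower one exceeded WT replicate 2 only narrowly. Its log2 fold change of 0.62 ± 0.48 (95% interval -0.55 to 1.79; limma adjusted p = 1) was positive with every library left out in turn, from 0.32 without WT replicate 1 to 0.93 without WT replicate 2.

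FAMA, the bHLH protein of the last step, stood at 15.4 and 5.93 FPKM in the WT libraries against 6.62 and 5.62 FPKM in the K36M libraries. WT replicate 1 was the highest library and the other 3 lay within a narrow range. The log2 fold change of -0.59 ± 0.51 (95% interval -1.84 to 0.67; limma adjusted p = 1) became 0.036 without WT replicate 1. FAMA was the only gene of the 10 with its highest value in WT replicate 1.

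SCRM, the bHLH partner of these 3 proteins and also a regulator of cold responses, stood at 16.3 and 33.7 FPKM in the WT libraries against 17.1 and 22.1 FPKM in the K36M libraries. Both K36M values lay between the WT values. The log2 fold change was -0.26 ± 0.49 (95% interval -1.47 to 0.94; limma adjusted p = 1), and 0.24 without WT replicate 2.

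BASL, a protein held at one side of the cell during asymmetric divisions, had the largest ratio of group means among the 10, with 0.249 and 0.508 FPKM in the WT libraries against 1.5 and 2.6 FPKM in the K36M libraries. The groups did not overlap, and the lower K36M value was above the higher WT value by a wide margin. The K36M mean (2.05 ± 0.775 FPKM, SD, n = 2) was 5.41-fold the WT mean (0.379 ± 0.183 FPKM, SD, n = 2). On the log2(FPKM + 1) scale, which understates changes of low genes, the fold change was 1.13 ± 0.47 (95% interval -0.03 to 2.28; limma unadjusted p = 0.054, adjusted p = 1), and it went from 0.99 without WT replicate 1 to 1.26 without WT replicate 2. BASL passed the filter on low values only through its K36M libraries, as its WT values were both under 1 FPKM, so a gene of this kind had to differ in order to be tested.

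Of the ligands, EPF2, the peptide that limits entry into the lineage and is made by its earliest cells, stood at 0.382 and 9.88 FPKM in the WT libraries against 5.10 and 11.6 FPKM in the K36M libraries. WT replicate 1 was far below the other libraries, and K36M replicate 2 was the highest. The log2 fold change of 1.18 ± 0.98 (95% interval -1.20 to 3.56; limma adjusted p = 1) turned to -0.31 without WT replicate 1 and went to 2.67 without WT replicate 2. Either value rests on 1 WT library, with no spread within WT.

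EPF1, the peptide that enforces spacing and the orientation of divisions, was at 3.61 and 32.6 FPKM in the WT libraries against 14.2 and 17.0 FPKM in the K36M libraries. Both K36M values lay between the WT values. The mean FPKM was lower in K36M (0.862-fold) while the log2 fold change, 0.41 ± 0.90 (95% interval -1.79 to 2.62; limma adjusted p = 1), was positive; it went from -1.02 without WT replicate 1 to 1.84 without WT replicate 2.

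TMM, a receptor-like protein with no kinase domain that takes part in sensing EPF peptides, had the same order of groups as EPF1, at 3.03 and 23.4 FPKM in the WT libraries against 10.5 and 9.83 FPKM in the K36M libraries. The K36M values were close together and between the WT values. The mean was 0.767-fold that of WT, the log2 fold change was 0.17 ± 0.83 (95% interval -1.86 to 2.19; limma adjusted p = 1), and it went from -1.13 without WT replicate 1 to 1.47 without WT replicate 2.

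ERL1, a receptor kinase of the ERECTA family that acts with EPF1, was low throughout, at 0.415 and 0.347 FPKM in the WT libraries against 1.37 and 1.09 FPKM in the K36M libraries. The replicates of each group were close together and the groups did not overlap. The K36M mean of 1.23 ± 0.204 FPKM was 3.23-fold the WT mean of 0.381 ± 0.0484 FPKM (SD, n = 2 each). With a mean below 1 FPKM it was not among the tested features; with the minimum lowered to 0.5 FPKM its log2 fold change was 0.69 and it was not called (limma adjusted p = 1.00). ERL1 passed that lower minimum only through its K36M libraries, as its WT values were both under 0.5 FPKM. The span of ERL1 overlaps that of AT5G62240 in the RefSeq annotation, and whether strand was used in counting is not given. AT5G62240 stood at 0.0948 and 0 FPKM in the WT libraries against 0.272 and 0.349 FPKM in the K36M libraries. Both K36M values were thus above both WT values, as for ERL1, and the part of this overlap in the ERL1 values was not tested.

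SDD1, a subtilisin-like protease of the lineage that lowers stomatal density, stood at 1.05 and 2.1 FPKM in the WT libraries against 1.96 and 2.37 FPKM in the K36M libraries. WT replicate 1 was the lowest and the other 3 libraries were close together. The log2 fold change was 0.32 ± 0.45 (95% interval -0.77 to 1.42; limma adjusted p = 1) and 0.025 without WT replicate 1.

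The 95% intervals of 7 of the 9 tested genes, all but SCRM and SDD1, reached 1.79 log2 units or more on one side of 0 at least, so with 2 libraries per group the test leaves room for differences of that size. Over all 10 genes the log2 difference was above 0 in 8, with a median of 0.38. The median was 0.35 over the 9 tested genes, and -0.05 over all 17738 tested features, of which 45.6% were above 0. Without WT replicate 1 the difference was above 0 in 5 of 10 genes (median -0.11), and without WT replicate 2 in 9 of 10 (median 0.94). Both K36M values lay between the WT values for SCRM, EPF1 and TMM, 3 of the 9 tested, against 31.2% of all tested features. Both K36M values exceeded both WT values in 2 of the 9 tested genes, MUTE and BASL, against 12.1% of all tested features, and fell below both in 0 of 9, against 19.3%. BASL had to differ in order to be tested, and ERL1, which has the same order of values, was not tested, so nothing is read from this count. When WT replicate 1 was left out, MUTE and BASL were again the tested genes with both K36M values above the remaining WT value (2 of 9, against 30.0% of tested features). When WT replicate 2 was left out instead, 8 of the 9, all but FAMA, had both K36M values above the remaining WT value, against 39.4% of tested features.

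**Figure D2:**
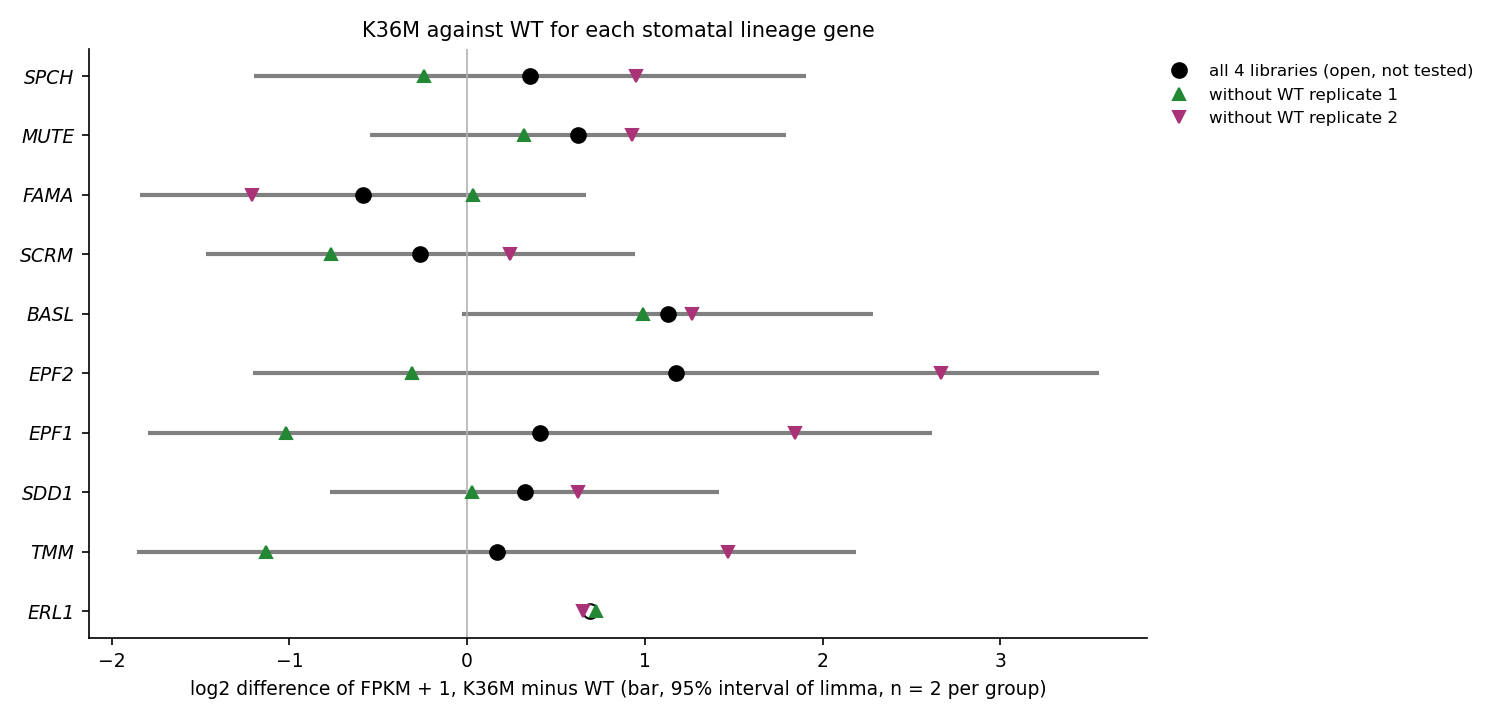
Difference in log2(FPKM + 1), K36M minus WT (horizontal axis), for the 10 genes; black circles use all 4 libraries, with the 95% interval of limma as a bar, and triangles leave out 1 WT library. EPF2, EPF1 and TMM move across 0 depending on which WT library is left out, from -0.31 to 2.67 for EPF2, while BASL, MUTE and ERL1 stay above 0 in both cases.

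The libraries of the same genotype differed more within WT than within K36M. The median absolute difference between the WT libraries was 1.19 log2 units over the 9 tested genes and 0.70 over all tested features. Between the K36M libraries it was 0.36 and 0.34. WT replicate 1 was the lowest of the 4 libraries for 8 of the 9 tested genes, all but FAMA, where 34.7% of all tested features had it lowest. Its difference from the mean of the other 3 libraries was -2.77 log2 units for EPF2, -2.18 for EPF1, -1.84 for TMM and -1.03 for SPCH, and 1.22 for FAMA. Short genes in general were low in that library. The median difference was -0.64 over 1067 tested features spanning 900 to under 1200 bp, the class of EPF1 (952 bp) and EPF2 (1107 bp). It was -0.31 over 2341 features of 1500 to under 1900 bp, the class of TMM (1831 bp), and 0.15 over 791 features of 3000 to under 3200 bp, the class of SPCH (3037 bp) and FAMA (3094 bp). EPF1, EPF2, TMM and FAMA were farther from 0 than the median of their class, on the same side of 0. So were MUTE (-0.82) and BASL (-0.93), which are in the class of TMM. So too were SCRM (-0.49) and SDD1 (-0.61), in a class of 2400 to under 2700 bp with a median of -0.04 over 1633 features. SPCH was below 0 while the median of its class was above 0. The part of gene span in these values was not tested gene by gene. With the span trend of each library removed, an alternative chosen once the data had been seen, none of the 9 genes changed sign and none was called, but the log2 fold change of EPF1 went from 0.41 to 0.12.

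Markers of leaf age and cell type moved with the same library. Of 9 marker genes of meristem, young leaf and dividing cells, all 9 were lowest in WT replicate 1, against 34.7% of all tested features. Their median difference from the other libraries was -1.71 log2 units. Their summed level was 22.1 and 84.1 FPKM in the WT libraries against 94.0 and 124 FPKM in the K36M libraries, with STM, a homeobox gene of the meristem, and GRF5, a leaf growth factor, listed at 0 in WT replicate 1. AN3, a co-activator of leaf cell proliferation, stood at 0.618 and 21.7 FPKM in the WT libraries against 16.2 and 26.4 FPKM in the K36M libraries. None of the 9 was called between the genotypes (limma adjusted p = 1; 2 of 9 at an unadjusted p under 0.05, GRF5 and KNOLLE, against 4.12% of all tested features), and all 9 had a log2 fold change above 0, 7 of 9 without WT replicate 1. Both K36M values exceeded both WT values for 5 of these 9 markers, against 12.1% of all tested features. They fell below both for 0 of 9, against 19.3%. The markers' median log2 fold change, 1.33 with all 4 libraries, shrank to 0.34 once WT replicate 1 was dropped. Dropping WT replicate 2 instead raised this median to 1.81. GRF5 and the cyclin gene CYCB1;1 had WT means of 0.471 and 0.941 FPKM and passed the filter only through their K36M libraries. These counts are therefore a description only. Bulk RNA cannot tell fewer cells of a type from less RNA per cell, for these markers or for the lineage genes, and the part of leaf age or cell composition in the lineage values was not tested.

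Markers of mature guard cells were placed the other way round. WT replicate 1 was the highest library for 10 of 15 of them, against 34.0% of all tested features, with a median difference of 0.57 log2 units from the other 3 libraries. KAT1, a potassium channel of guard cells, stood at 7.20 and 1.18 FPKM in the WT libraries against 3.27 and 2.30 FPKM in the K36M libraries. The anion channel gene SLAC1 stood at 3.60 and 1.40 FPKM in the WT libraries against 1.53 and 1.43 FPKM in the K36M libraries, and the transcription factor gene MYB60 at 8.63 and 4.23 FPKM in the WT libraries against 6.08 and 6.25 FPKM in the K36M libraries. FAMA, SLAC1, KAT1 and MYB60 thus shared their highest library, the one in which SPCH, MUTE, EPF1, EPF2, TMM and BASL were lowest. The exceptions were CYP86A2 (61.2 and 249 FPKM in WT), AT2G16630 and AT1G23200, which were lowest in WT replicate 1, and OST1 and AT1G22690, which had their highest value in another library.

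Between the genotypes no guard cell marker was called (limma adjusted p = 1). At a limma unadjusted p under 0.05 there was 1 of 15, against 4.12% of all tested features. The median log2 fold change was -0.18, and it went from 0.05 without WT replicate 1 to -0.51 without WT replicate 2. The K36M values were both below the WT values for 4 of 15, against 19.3% of all tested features. These were the transcription factor gene SCAP1, AT1G22690, and the myrosinase genes TGG1 and TGG2. Both K36M values were above both WT values for 0 of 15, against 12.1% of all tested features. TGG2 had 1982 and 1113 FPKM in the WT libraries against 340 and 436 FPKM in the K36M libraries, and its log2 fold change was -1.94 ± 0.67 (limma unadjusted p = 0.026, adjusted p = 1). OST1, a kinase of abscisic acid signalling, had its highest value in K36M replicate 2, at 7.23 and 4.39 FPKM in the WT libraries against 6.71 and 15.7 FPKM in the K36M libraries. The summed level of the 15 markers was 4988 and 2384 FPKM in the WT libraries against 1280 and 1435 FPKM in the K36M libraries, a sum carried mostly by TGG1 and TGG2, and no marker was at 0 in any library.

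Markers of epidermal identity were read in all libraries. ATML1, a homeobox gene of the epidermis, stood at 13.5 and 20.1 FPKM in the WT libraries against 17.6 and 19.4 FPKM in the K36M libraries, and its relative PDF2 ranged from 22.1 to 25.8 FPKM over the 4 libraries. Of 11 epidermis and trichome markers, 8 were lowest in WT replicate 1, against 34.7% of all tested features. The protodermal gene PDF1 was the most extreme, at 4.81 and 404 FPKM in the WT libraries against 313 and 213 FPKM in the K36M libraries, and the trichome regulator GL1 was listed at 0 in WT replicate 1. The summed level was 1235 and 4667 FPKM in the WT libraries against 3231 and 3442 FPKM in the K36M libraries. None of the 11 was called (limma adjusted p = 1). At a limma unadjusted p under 0.05 there were 0 of 11, against 4.12% of all tested features. Their median log2 fold change of -0.01 went from -0.38 without WT replicate 1 to 0.41 without WT replicate 2, and was 0.27 with the span trend removed. The plot of WT replicate 1 against the other libraries sets these lists beside the lineage genes.

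**Figure D3:**
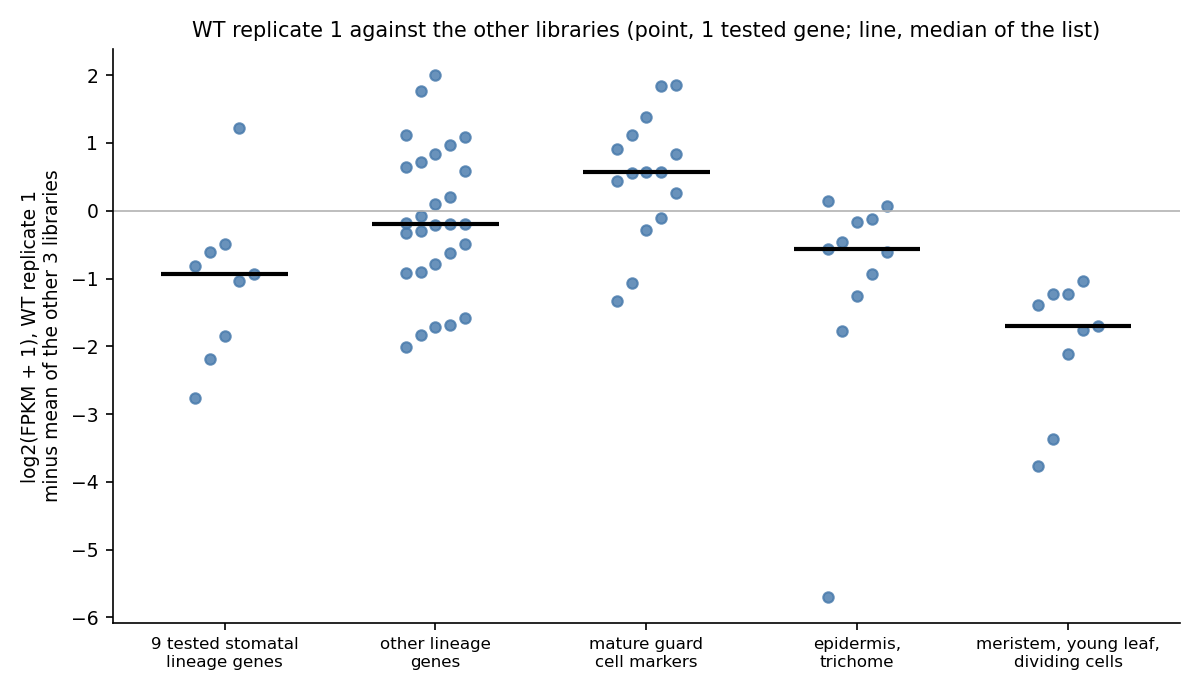
Difference in log2(FPKM + 1) between WT replicate 1 and the mean of the other 3 libraries (vertical axis), for each tested gene of 5 lists; each point is 1 gene and each line the list's median. The medians are -0.93 for the 9 tested lineage genes and -1.71 for meristem, young leaf and dividing cell markers, but 0.57 for mature guard cell markers.

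A further 30 genes known to act in or on the stomatal lineage were examined. BIN2 shares its value with a neighbouring gene in the table and was not used, and the cyclin gene CYCD7;1 was below the filter at 0.153 FPKM or less. None of the other 28 was called (limma adjusted p = 1). At a limma unadjusted p under 0.05 there were 2 of 28, against 4.12% of all tested features. Both K36M values lay above both WT values for 8 of 28, against 12.1% of all tested features, and below both for 7 of 28, against 19.3%. The median log2 fold change was 0.06; it was 0.03 without WT replicate 1, 0.18 without WT replicate 2 and 0.26 with the span trend removed. EPFL6 and POLAR, with WT means of 0.979 and 0.989 FPKM, passed the filter only through their K36M libraries.

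The 8 genes with higher values in both K36M libraries were ER, ERL2, EPFL4, EPFL5, EPFL6, the polarity gene BRXL2 and the cell fate regulators SOL1 and TCX2 (SOL2). ERECTA (ER), the founding receptor kinase of the family, stood at 11.0 and 15.5 FPKM in the WT libraries against 26.2 and 18.8 FPKM in the K36M libraries, and ERL2 at 1.15 and 1.74 FPKM in the WT libraries against 3.13 and 2.25 FPKM in the K36M libraries. ERL1, below the filter, had its values in the same order. Of the ligand genes, EPFL4 (0 and 2.17 FPKM in WT against 3.43 and 3.60 FPKM in K36M), EPFL5 (1.57 and 1.56 FPKM in WT against 3.01 and 3.64 FPKM in K36M) and EPFL6 (0.0971 and 1.86 FPKM in WT against 4.08 and 1.99 FPKM in K36M) did the same. These EPFL peptides are ERECTA ligands known mainly from stem growth. STOMAGEN, the peptide from mesophyll that promotes stomata by competing with EPF peptides, overlapped between the groups at 29.3 and 120 FPKM in the WT libraries against 77.5 and 102 FPKM in the K36M libraries.

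The 7 genes with lower values in both K36M libraries were MKK4, MKK5, YDA, MPK6, SERK3, BSL1 and the cell cycle regulator RBR1. The MAP kinase kinase genes MKK4 (27.2 and 14.0 FPKM in WT against 12.3 and 9.89 FPKM in K36M) and MKK5 (19.2 and 16.2 FPKM in WT against 8.95 and 7.31 FPKM in K36M) were lower in both K36M libraries than in either WT library. So were YDA, the kinase above them (8.59 and 11.4 FPKM in WT against 7.37 and 5.99 FPKM in K36M), MPK6, and the co-receptor gene SERK3, also called BAK1 (19.0 and 13.3 FPKM in WT against 6.72 and 8.65 FPKM in K36M). MPK3 overlapped, with 193 FPKM in WT replicate 1 and 40.9 to 58.4 FPKM in the other libraries. The MAP kinase cascade also serves growth and immune receptors, and its transcripts are not particular to stomata. MKK5 had a log2 fold change of -1.04 ± 0.39 (limma unadjusted p = 0.036, adjusted p = 1). BSL1, a phosphatase that BASL recruits in the polarity complex, stood at 30.9 and 13.7 FPKM in the WT libraries against 6.81 and 6.18 FPKM in the K36M libraries, and its log2 fold change was -1.53 ± 0.49 (limma unadjusted p = 0.020, adjusted p = 1), from -0.97 without WT replicate 1 to -2.09 without WT replicate 2. BSL1 and BASL thus differed in the direction of their values.

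Other partners of polarity and division were spread. POLAR, a polarity protein of the same cells as BASL, stood at 0.040 and 1.94 FPKM in the WT libraries against 1.77 and 2.73 FPKM in the K36M libraries, with WT replicate 1 far below the rest. BRXL2, of the same complex, stood at 1.59 and 1.19 FPKM in the WT libraries against 1.95 and 2.85 FPKM in the K36M libraries. CDKB1;1, a mitotic kinase used in guard mother cell division, was at 2.08 and 10.5 FPKM in the WT libraries against 8.70 and 11.1 FPKM in the K36M libraries, while FLP and MYB88, MYB factors that stop divisions after that step, were highest in WT replicate 1 at 5.33 and 4.81 FPKM and lowest in WT replicate 2 at 2.28 and 1.21 FPKM. SCRM2, the relative of SCRM, ranged only from 10.7 to 15.7 FPKM over the 4 libraries.

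**Figure D4:**
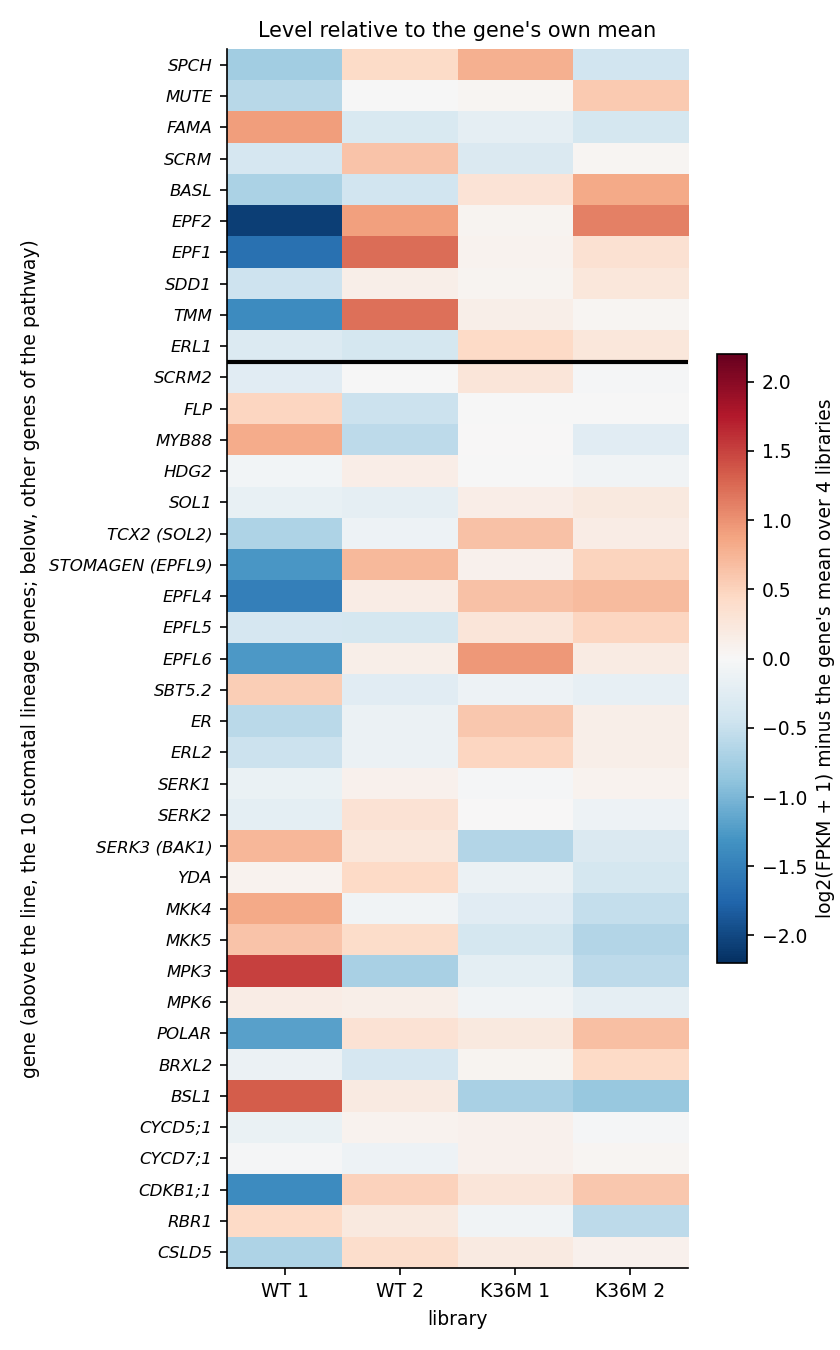
Log2(FPKM + 1) of each gene minus its own mean over the 4 libraries (colour, red above and blue below), for the 10 lineage genes above the line and 29 other genes of the pathway below it. In the WT 1 column EPF2, EPF1 and TMM are dark blue and FAMA is red; ER, ERL1 and ERL2 are blue in both WT columns and red in both K36M columns.

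Among 72 tested genes of the other lists, the 3 whose levels followed the mean profile of the 9 tested lineage genes most closely were the xylem protease gene XCP1, the cellulose synthase-like gene CSLD5 and AT2G16630 (root mean square distance of centred log2(FPKM + 1) over 4 libraries of 0.11, 0.11 and 0.17). XCP1 stood at 19.2 and 45.1 FPKM in the WT libraries against 30.3 and 38.9 FPKM in the K36M libraries, and CSLD5 at 4.21 and 9.84 FPKM in the WT libraries against 8.60 and 7.92 FPKM in the K36M libraries. The mean profile of the lineage genes was lowest in WT replicate 1 (-0.79) and highest in WT replicate 2 (0.42), with K36M replicates 1 and 2 between them (0.11 and 0.26). The FPKM summed over all features put the libraries in the same order, and the part of these sums in the profile was not tested.

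Between WT replicate 2 and K36M replicate 2, many values stood in ratios of whole numbers. After division by a constant of 1.03, which was shared by 467 of 1706 features under 0.6 FPKM, the ratio of the values lay within 2e-05 (natural log scale, a tolerance chosen once the differences had been seen) of a ratio of whole numbers up to 100 for 7 of the 10 genes and for 48.1% of tested features. In lowest terms, WT to K36M, the ratio was 5 to 2 for SPCH, 8 to 15 for MUTE, 19 to 22 for SDD1, 34 to 41 for EPF2, 69 to 37 for EPF1 and 77 to 75 for FAMA, each within 3.87e-06. BASL was nearest to 4 to 21 but lay 1.78e-05 away, close to the tolerance, and SCRM, TMM and ERL1 did not match. If whole fragments were counted, the fragments behind the 6 closer values are these numbers or a multiple of them. The multiple is not known, so 5 to 2 for SPCH is not its number of fragments. FAMA, of like span (3094 bp against 3037 bp for SPCH), had 77 to 75 at 5.93 and 5.62 FPKM, against 2.64 and 1.03 FPKM for SPCH. How few fragments lie behind the low values, such as those of BASL and MUTE, is also not known. In the other 5 pairs of libraries, between 2 and 8 low features shared the most frequent ratio and 2.27% to 7.70% of tested features matched, so no fragments are given for the replicate 1 libraries.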

How the data were processed

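The authors deposited FPKM for 33302 features in 4 libraries as 1 table without a header, with the unit taken from the file's name in the labels. Per the labels' protocols, a stranded mRNA kit was used for the leaf RNA. TAIR10, Bowtie2 and bedtools are named, with no role, in the submitters' processing notes; the program behind the FPKM, and whether it used strand, is not given in the sources used here. Columns were matched to samples by the condition names quoted in the labels.

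Groups were compared on log2(FPKM + 1) for 17738 features, those whose mean over the 4 libraries reached 1 FPKM, with limma 3.58.1 in R 4.3.3 (eBayes with trend, two-sided, 2 libraries per group, Benjamini-Hochberg over all features, threshold 0.05). Depth is unknown, so no count model was run and precision is given by the spread between libraries. The step was tested on simulated data. The 10 genes, the other lists and the tests were chosen with earlier results of these data known. All 10 genes and any gene of the pathway list could be named; of the other lists, called genes, then up to 4 with the greatest change and markers at 0. Lists' further genes (among them KAT1, MYB60, ATML1, PDF2 and RBCS1A) were chosen after their values were seen. RefSeq's TAIR10.1 annotation gave the gene names and spans; no coordinates are printed because the builds differ in name. Tables and figures used Python 3.11.15, pandas 2.3.3 and matplotlib 3.10.9. The alternatives tried were pseudocounts of 0.1 and 0.5, 2 other filters, quantile and upper quartile scaling, limma without trend or robust, a replicate block, each library left out in turn, and removal of the gene span trend.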

Additional observations from a re-analysis of the deposited data

How the results depend on the processing

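None of the 9 tested lineage genes was called under any of 15 alternatives. Apart from leaving out a library, 11 alternatives kept the sign of all 9. Among these, the 2 other filters, limma without trend or robust, and the replicate block cannot alter the fold change itself. Only the pseudocounts, the 2 scalings and the removal of the span trend could have changed a sign. With each library left out in turn the log2 fold change ranged from -0.25 to 0.96 for SPCH, from -1.21 to 0.036 for FAMA, from -0.77 to 0.24 for SCRM, from -1.13 to 1.47 for TMM, from -1.02 to 1.84 for EPF1 and from -0.31 to 2.67 for EPF2, and it kept its sign for MUTE, BASL and SDD1. The lineage genes' median ranged from -0.24 to 0.95 in the same way. The cause was not tested. Over the whole table the 5 features called higher and 2 called lower became 0 and 0 with no filter (1175 at an unadjusted p under 0.05) and with the replicate block (794), 3 called higher with the span trend removed, and 5 called lower with the span trend removed and the replicate block. They ranged from 0 to 192 called higher and from 0 to 510 called lower with a library left out, with both highest counts without WT replicate 2. Deviations of same-numbered libraries from their group means correlated at 0.128 over the tested features, from 2 pairs only, so the libraries were treated as sharing a number and not as paired; the block changed no call among the lineage genes. Scaling by the upper quartile moved the median of all tested features from -0.05 to 0.03.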

Other observations

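Markers of the tissues below the epidermis were also read. Of 5 mesophyll markers, 1 had a log2 fold change above 0 in K36M, against 45.6% of all tested features, and 2 were lowest in WT replicate 1, against 34.7%. Both K36M values were below both WT values for 2 of 5, against 19.3% of all tested features. The median log2 fold change of the 5 was -0.51, from -1.06 without WT replicate 1 to -0.0084 without WT replicate 2. None was called by limma, and 0 were at an unadjusted p under 0.05, where 4.12% of all tested features lay. RCA, which activates rubisco, had 7436 and 14457 FPKM in the WT libraries against 6751 and 7075 FPKM in the K36M libraries. Of 4 vascular markers, 2 were above 0, against 45.6% of all tested features. Both K36M values were below both WT values for 1 of 4, against 19.3%. The median log2 fold change of the 4 was 0.02, which turned to -0.36 without WT replicate 1. None was called, and 0 were at a limma unadjusted p under 0.05, where 4.12% of all tested features lay. SUC2, the sucrose transporter of the phloem, had 113 and 119 FPKM in the WT libraries against 101 and 87.5 FPKM in the K36M libraries.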
